A study of Mus musculus with 19 samples.

Results

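Narrow strong peaks are the regions of a chromatin accessibility catalogue that are shorter than 200 bp and yet have a deposited fold enrichment of 20 or more. They were chosen by these values alone, on chromosomes 1 to 19 and X, and 2423 of the 140208 peaks there met both limits. The whole catalogue holds 140383 peaks, made by ATAC-seq from primary bone marrow-derived macrophages of the mouse. Its 19 samples form 10 groups: wild type and Smarca5-/- cells, each without treatment or treated for 1 h or 2 h with LPS (10 ng/ml) or with interferon beta (100 U/ml). Mice of both genotypes carried Csf1r-Cre, and the deleted cells also carried Smarca5lox/lox. Per the labels, the marrow was grown into macrophages over 7 days with 4-hydroxytamoxifen added each day. Csf1r is the receptor gene of the macrophage growth factor, and Cre under its promoter acts in cells of this lineage. There were 2 samples in 9 groups and 1 sample in wild type cells given interferon beta for 1 h. The labels give neither the ages of the mice nor whether samples of a group came from separate animals.

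In ATAC-seq, the transposase Tn5 cuts and tags DNA that is not wrapped around nucleosomes, so a peak marks an open stretch such as a promoter, an enhancer or the site of a bound factor. Smarca5 encodes the motor of ISWI remodelling complexes, which slide nucleosomes along DNA and space them evenly. The list gives 1 set of values for each peak over all samples. It therefore cannot show how any region differs between wild type and Smarca5-/- cells or between treatments, and no replicate error applies. The fold of a peak is the authors' value of enrichment over local background, and its −log10 q is the authors' measure of how surely the peak stands above that background. Both come from the same comparison as the rule, so they are described and not tested. The depth of each sample is unknown. No gene table or genome of the list's build, mm39, was used here, so the genes and sequences at these regions, and the labelled cell type, were not examined.

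Narrow peaks were the rule in the catalogue but the exception among strong peaks. Of all peaks on these chromosomes, 72264 (51.5%) were narrower than 200 bp. Among the 21057 peaks of fold 20 or more, the 2423 narrow ones made up 11.5% (Wilson 95% interval 11.1% to 11.9%). Another 18047 strong peaks were 200 to less than 800 bp wide, and 587 were wider. The median narrow strong peak was 164 bp wide. Its quartiles were 140 and 182 bp, and the shortest had 2 bp. Together the narrow strong peaks covered 371779 bp. Their widths had a tail of very short intervals, in which 353 were narrower than 120 bp and 17 narrower than 10 bp. At the upper limit the widths ran on smoothly: 358 strong peaks were 190 to less than 200 bp wide and 384 were 200 to less than 210 bp wide. The limit of 200 bp therefore cuts through a continuous range of widths.

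The fold of narrow strong peaks lay close to the limit. Its median was 22.5, with quartiles of 21.0 and 25, and 1819 of the 2423 had a fold from 20 to 25. In that band, narrow peaks were 17.5% of the 10393 strong peaks (Wilson 95% interval 16.8% to 18.2%). From 25 to 30 they were 7.68% of 6520, and from 30 to 40 only 2.37% of 4048. Above that the numbers were small: 4 of 81 peaks from 40 to 50 were narrow, and 3 of 15 peaks of fold 50 or more. These last 3 included the peak with the highest fold in the catalogue. All intervals treat peaks as independent and describe this list alone.

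**Figure D1:**
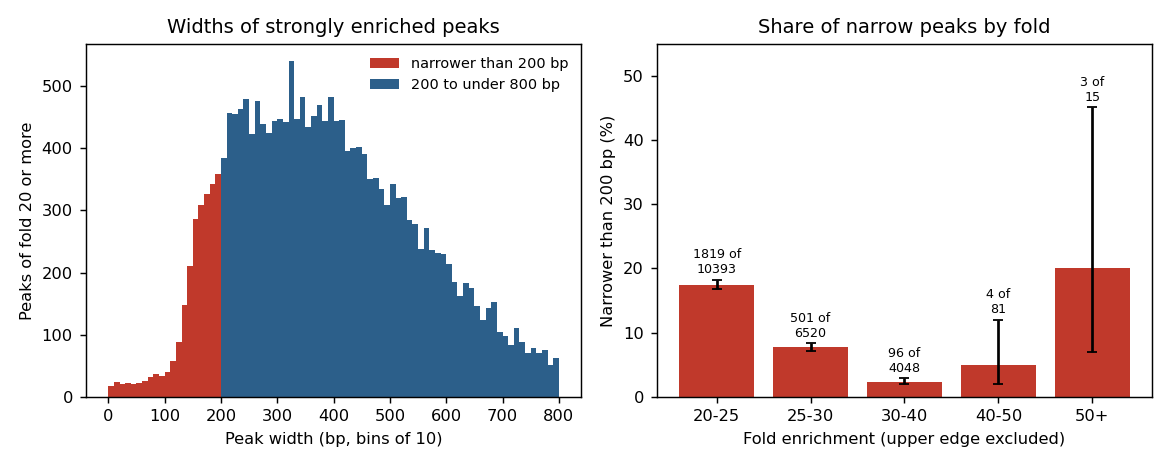
Left, number of peaks of fold 20 or more by width in bins of 10 bp, with the 2423 peaks narrower than 200 bp in red and the 18047 peaks of 200 to less than 800 bp in blue. Right, percentage of strong peaks that were narrow in 5 bands of fold, with Wilson 95% intervals; it falls from 17.5% to 2.37% and rests on 4 and 3 narrow peaks in the last bands.

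The narrow strong peaks were spread over all 20 chromosomes in proportion to the strong peaks there. Their share of strong peaks ran from 10.0% on chromosome 4 (126 of 1254) to 12.7% on chromosome 15 (106 of 837). The Wilson 95% intervals of these extremes, 8.50% to 11.8% and 10.6% to 15.1%, overlapped. Chromosome 2 held the most, 196, and X the fewest, 54. Per length, the density was highest on chromosome 11, with 1.35 per Mb, and 0.976 per Mb on the median autosome. Chromosome X had 0.331 per Mb, but its share of strong peaks that were narrow, 10.9%, was within the autosomal range. Narrow strong peaks did not form long runs of their own, but few would be expected at a median gap of 458448 bp between them. No comparison set is given for this. Taking those less than 10 kb apart as 1 stretch gave 81 stretches of 2, none of 3 or more, and 2261 peaks alone.

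Narrow strong peaks fell into 2 sets by their distance to the nearest other peak of any kind. In one, 659 (27.2%, Wilson 95% interval 25.5% to 29%) lay within 500 bp of another peak. The other 1764 lay beyond 500 bp, with a median distance of 6301 bp (order-statistic 95% interval 6049 to 6624). Between these sets the numbers thinned out: 245 were more than 200 and at most 300 bp from the nearest peak, 133 were more than 300 and at most 400 bp away, and only 32 were more than 400 and at most 500 bp away. The sets were not cleanly separated. In the far set, 100 lay at most 1000 bp away, 136 more at most 2000 bp and 388 more at most 5000 bp. The split at 500 bp, like the bound of 120 bp for short intervals, was chosen after the values were seen. For comparison, strong peaks of 200 to less than 800 bp were weighted so that 5 bands of fold had the same shares as among the narrow strong peaks. Of these, 15.5% lay within 500 bp of another peak, and the share was lower than that of the narrow strong peaks on each of the 20 chromosomes. It ranged from 13.7% to 18.9% over chromosomes in the weighted comparison and from 20.8% to 36.0% in the narrow strong peaks. Among narrow strong peaks it was 98.3% under 120 bp, 29.1% from 120 to less than 150 bp and 11.2% from 150 to less than 200 bp. For the 2070 of 120 bp or wider together it was 15.1%, close to the 15.5% of the comparison. Of the 69841 narrow peaks with a fold under 20, 21.8% lay within 500 bp.

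Touching another peak, with no base between them, was uncommon and was seen in 37 narrow strong peaks (1.53%). This count rests on reading the listed start as the first base of a peak: with width as end minus start, no peak touched another and the difference from the weighted comparison was 0. The weighted comparison had 0.0274% and the narrow peaks of lower fold 3.78%. Gaps of 1 to 100 bp were fewer still, with 18 narrow strong peaks. At the far end, 51 narrow strong peaks (2.10%) lay more than 50000 bp from any other peak, against 0.677% in the weighted comparison. The median over all narrow strong peaks, 4635 bp, was 1.35 times that of the weighted comparison, but it averages over both sets. For peaks narrower than 150 bp, most of which lay near another peak, the same ratio was 0.0936, and at a fold of 25 or more it was 1.01.

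**Figure D2:**
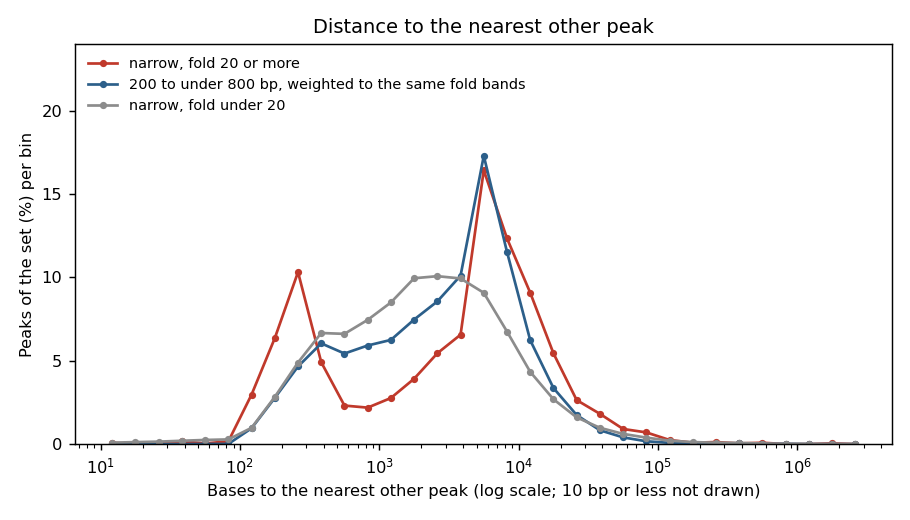
Percentage of each set by bases to the nearest other peak, in equal bins on a log scale. The narrow strong peaks (red) have 2 maxima, near 250 bp and above 5000 bp. Between them the share falls to 2.19% per bin at 681 to 1000 bp and then climbs again. The wider strong peaks (blue, weighted to the same bands of fold) and the narrow peaks of lower fold (grey) dip there only slightly or not at all.

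The very short intervals belonged almost wholly to the near set. Of the 353 narrow strong peaks under 120 bp, 347 (98.3%) lay within 500 bp of another peak. Of the 2070 that were 120 bp or wider, 15.1% did. The median width was 117 bp in the near set (order-statistic 95% interval 112 to 121) and 171 bp beyond 500 bp (170 to 173). Among narrow peaks of lower fold the share was smaller, with 5252 of their 7800 intervals under 120 bp (67.3%) lying within 500 bp of another peak.

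A narrow strong peak of the near set usually flanked a wider and somewhat stronger peak. The nearest peak was wider for 558 of 659 (84.7%), had a higher fold for 521 (79.1%), and had a fold of 20 or more for 572 (86.8%). Its median width was 351 bp and its median fold 25.4. For 86 of the 659 the nearest peak was itself a narrow strong peak. In 62 cases, another peak lay within 500 bp on both sides. Summit to summit, a peak of the near set and its nearest peak were a median of 498 bp apart, with quartiles of 424 and 575 bp. Strong peaks of 200 to less than 800 bp with a peak within 500 bp were differently placed: in the weighted comparison their nearest peak had a fold of 20 or more in 30.1%, a higher fold in 7.17% and a greater width in 11.8%. The widths in this comparison are set largely by the rule, which puts the narrow strong peaks below and the others above 200 bp. A wider nearest peak was also found for 62.3% of the narrow strong peaks beyond 500 bp and for 68.3% of narrow peaks of lower fold within 500 bp of a peak. In the latter, 59.6% had a nearest peak of higher fold. The folds of narrow strong peaks lay close to the limit of 20, so a strong neighbour tends to have a higher one.

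Within 500 bp, the −log10 q of a narrow strong peak also followed that of its neighbour closely. The −log10 q of the narrow peak was a median of 0.934 times that of the nearest peak, with quartiles of 0.862 and 0.988. The ratio lay between 0.8 and 1.2 for 504 of 659 (76.5%, Wilson 95% interval 73.1% to 79.6%). The ratio of folds lay in that range for 522 (79.2%). All 37 touching peaks were in it for both values. Beyond 500 bp, only 94 of 1764 (5.33%) had a −log10 q this close to that of the nearest peak, and the median ratio was 3.52. The rule requires a fold of 20 of the narrow peak and nothing of its neighbour, so a ratio above 1 is favoured at any distance. For narrow peaks of lower fold within 500 bp of another peak, 55.3% had a −log10 q ratio between 0.8 and 1.2. The ratio of folds lay there for 65.5% of them. For wider strong peaks within 500 bp, unweighted, the shares were 32.0% and 32.7%. The rule selects on fold, and folds in the near set had quartiles of only 21.2 and 25.3. Those of their nearest peaks had quartiles of 22.4 and 28.6, and 86.8% were 20 or more. Ratios of folds near 1 are therefore partly set by these ranges. Whether fold itself followed the neighbour was not tested. How the authors joined calls of separate samples into 1 interval, and whether a narrow interval and its neighbour came from the same call in some samples, was not tested.

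**Figure D3:**
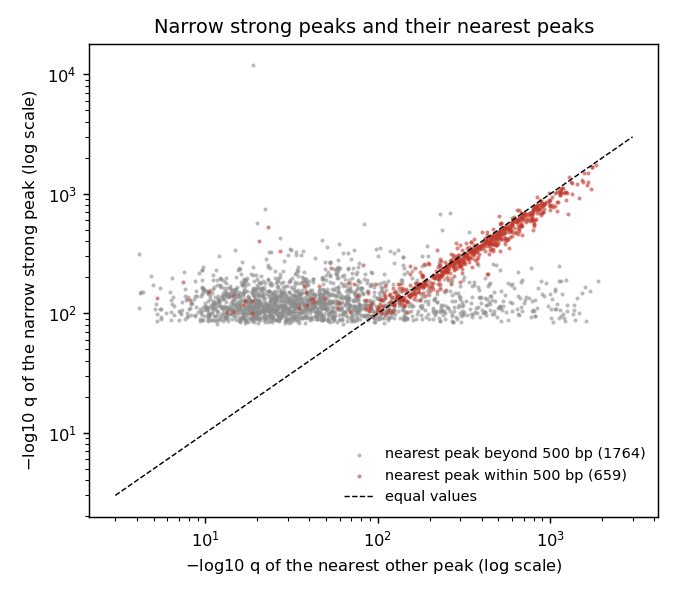
The −log10 q of each of the 2423 narrow strong peaks against that of its nearest other peak, both on log scales. The 659 with a peak within 500 bp (red) lie mostly along the line of equal values. Of the 1764 others (grey), 17.6% have a lower value than their neighbour. Whether the values of these others follow the neighbour was not measured.

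Distances between strong peaks left an almost empty zone. For 593 narrow strong peaks (24.5%), the nearest other peak of fold 20 or more was at most 500 bp away. For only 4 (0.165%) it lay more than 500 and at most 4500 bp away. The zone depends on what is called strong: with neighbours of fold 15 or more counted, the share there was 0.908%, and with fold 10 or more it was 5.53%. At a neighbour fold of 20, another 12 had it between 4500 and 5000 bp and 350 (14.4%) between 5000 and 10000 bp. Strong peaks of 200 to less than 800 bp showed the same zone, with 16 of 18047 (0.0887%) between 500 and 4500 bp and 3632 between 5000 and 10000 bp. The narrow strong peaks were therefore not the only ones concerned. Weaker peaks were plentiful there: 6798 narrow peaks with a fold under 20 lay between 500 and 4500 bp from a strong one.

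The fold of all peaks changed with this distance in the same way. Among the 9926 peaks lying between 500 and 4500 bp from the nearest other strong peak, the median fold was 6.10, and 20 (0.201%) were strong themselves. Among the 23303 peaks between 5000 and 10000 bp, the median was 10.6 and 17.5% were strong. The step was short, from a median of 6.07 between 4000 and 4500 bp to 10.3 between 4800 and 5000 bp. The median −log10 q moved less, from 37.9 in the zone to 48.8 beyond it. Inside 400 bp the median fold was 20.2. A nearby strong peak therefore went with a lower fold at a few kb and with a higher fold inside 400 bp. Since membership requires a fold of 20, regions between 500 and 4500 bp from a strong peak were nearly shut out of this set whatever their width. The local background enters the fold by definition. How it was estimated is not stated, and its part in this step was not tested.

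**Figure D4:**
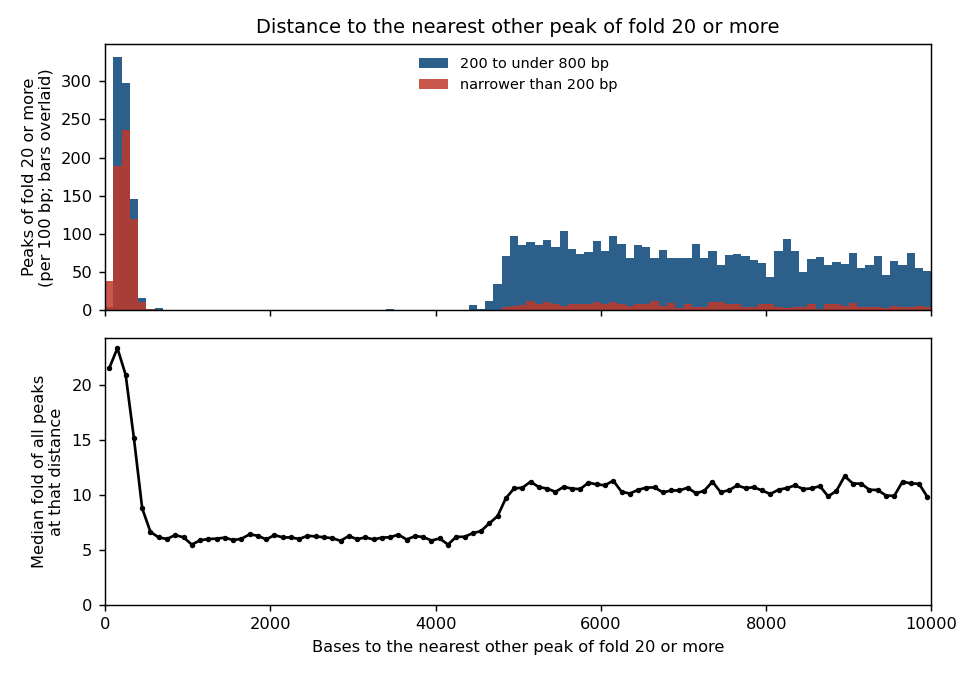
Top, number of strong peaks per 100 bp of distance to the nearest other strong peak, for widths of 200 to less than 800 bp (blue) and under 200 bp (red, overlaid). Bottom, median fold of all peaks at that distance. It is about 6 between 500 and 4500 bp, where strong peaks are nearly absent. From 4800 bp on, it lies between 9.68 and 11.7.

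Within the same bands of fold, narrow strong peaks had a lower −log10 q than wider ones. In the band of fold 20 to 25, the median was 120 for the 1819 narrow peaks and 222 for the 8214 wider peaks. From 25 to 30 the medians were 169 and 348, and from 30 to 40 they were 230 and 542. Over all bands, the median of the narrow strong peaks was 134 (order-statistic 95% interval 131 to 137), which was 0.522 times that of the weighted comparison. The bands left a small difference in fold, with a median of 22.5 in the narrow strong peaks and 23.2 in the weighted comparison. How much of the ratio goes with it was not tested. The narrow median of −log10 q was the lower one on all 20 chromosomes, with values from 127 to 145 against 203 to 311.

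The difference in −log10 q was larger in the set beyond 500 bp. There the narrow median was 119, or 0.505 times that of wider peaks also beyond 500 bp and weighted to the same bands of fold. In the near set it was 327, or 0.898 times that of wider peaks within 500 bp. The near set thus had 2.74 times the median −log10 q of the far set at a nearly equal median fold, 22.7 against 22.5. Among strong peaks as a whole, −log10 q did not rise steadily with width. Its median was 352 under 120 bp, 129 from 120 bp, 126 from 150 bp, 166 from 200 bp to less than 250 bp and 585 from 600 to less than 800 bp. With only peaks beyond 500 bp and of fold 20 to 25, it rose from 107 at 120 to less than 150 bp through 112, 130, 159, 179, 248 and 296 to 438 in the widest class.

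Summits, the positions of highest signal, were central in the far set and displaced in the near set. Beyond 500 bp, 69.4% of narrow strong peaks had the summit within the middle 20% of their width, against 49.1% in the weighted comparison, and 2 of 1764 (0.113%) had it in the outer 10% at either end. Within 500 bp, 37.0% had a central summit and 13.1% (86 of 659) an outer one. The summit was within 10 bp of an end in 155 of the near set and in 3 of the far set. Measured from the end away from the nearest peak, the median summit position was 43.4% of the width in the near set and 50.0% in the far set. In the near set, 35.8% of summits lay on the side facing the neighbour, against 48.2% in the far set. Narrow peaks of lower fold within 500 bp of a peak were displaced too, with 35.2% of summits central and 11.6% outer. On the side facing the neighbour lay 44.5% of their summits, and 45.2% in weighted wider strong peaks within 500 bp of a peak. Short intervals leave few positions for a summit, and 52.7% of the near set were under 120 bp. Among all narrow strong peaks under 120 bp, 27.2% of summits were central, 17.8% outer and 37.4% on the side facing the neighbour. Central summits were thus rarer, and outer ones more frequent, than in the near set as a whole. Summits of the near set at 120 bp or wider were not examined alone.

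The deposited scores also differed by width. Many scores are fractions that become whole when multiplied by a whole number of at most 20, as means of whole numbers do. A mean of 20 whole numbers needs a multiplier of 1, 2, 4, 5, 10 or 20, so a score that needs any other multiplier cannot be such a mean. The value 20 was taken from the scores, since 20 was the multiplier needed most often among strong peaks. The study has 19 samples, and no score in the list needed the multiplier 19, nor 11, 13, 15 or 17. What the averaged values were is not stated. Such another multiplier was needed by 743 narrow strong peaks (30.7%, Wilson 95% interval 28.9% to 32.5%), against 2.19% in the weighted comparison and 34.4% of narrow peaks with a lower fold. On the 20 chromosomes, the share ran from 22.4% to 34.9% for narrow strong peaks and from 0.315% to 3.95% for the comparison. By width it was 51.8% under 120 bp, 42.1% from 120 to less than 150 bp, 22.9% from there to the limit of 200 bp and 4.38% from 200 to less than 250 bp. It reached 0.126% from 600 to less than 800 bp. Multipliers 9 or 18 were needed by 214 narrow strong peaks, 7 or 14 by 150, and 8 or 16 by 184. The multiplier 20 was needed by 494 (20.4%), which lay between the 38.5% of the comparison and the 5.50% of narrow peaks with a lower fold. Whole-number scores made up 7.43%, against 5.22% and 21.9%. The set near another peak had a higher share of such other multipliers, 38.5%, than the far set, 27.7%. The 2 sets differ in width, however: 52.7% of the near set and 0.340% of the far set were under 120 bp. At those widths the share was 51.8%. Whether the share differed between near and far at equal width was not tested. Which samples entered each mean is not stated by the list.

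**Figure D5:**
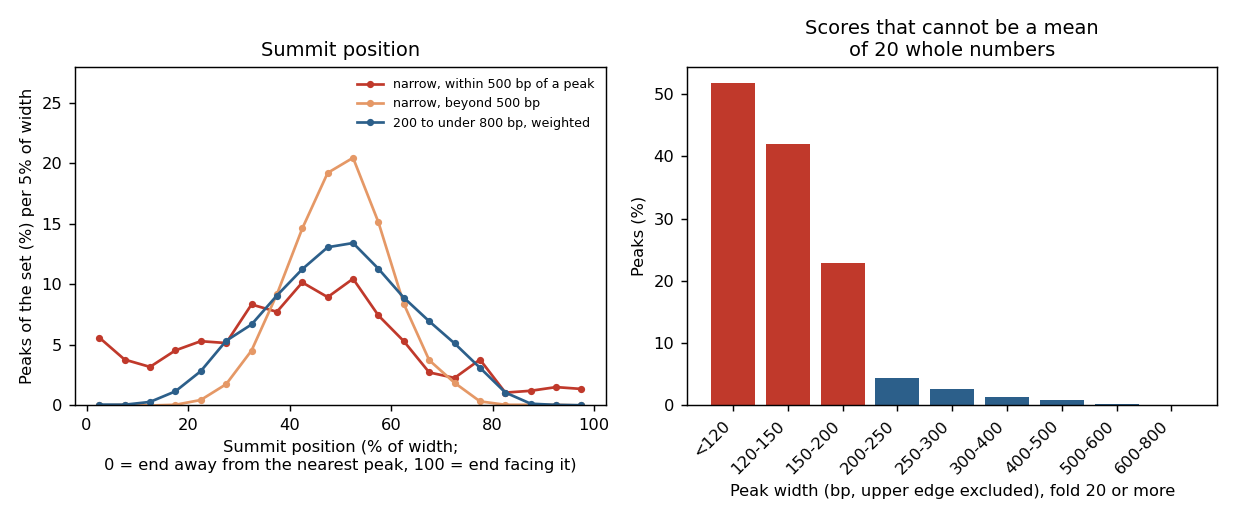
Left, summit position as a percentage of width, from the end away from the nearest peak (0) to the end facing it (100). Lines are narrow strong peaks within and beyond 500 bp of a peak, and wider strong peaks weighted to the same bands of fold. Right, percentage of strong peaks by width whose score cannot be a mean of 20 whole numbers, falling from 51.8% under 120 bp to 0.126% at 600 to less than 800 bp.

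The 5 narrow strong peaks of highest fold all lay more than 500 bp from another peak, as did 72.8% of all narrow strong peaks. For these 5 the distances ran from 2802 to 76151 bp. On mm39, the first, of 127 bp, lay on chromosome 2 from 69185883 to 69186009. Its fold was 75.7 and its −log10 q 11858. Its nearest peak, 3770 bp away, had a fold of only 2.04. The second, chromosome 9 from 3258817 to 3258937, reached a fold of 64.2 and a −log10 q of 690, and its nearest peak was 76151 bp away. Chromosome 17 from 68048357 to 68048520 followed, at a fold of 54.7. Chromosome 6 from 49213385 to 49213535 and chromosome 10 from 11367839 to 11367997 had folds of 48.4 and 48.3. Of these 5, only the peak on chromosome 6 needed the multiplier 20, and the first 2 had whole-number scores.

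The highest −log10 q values picked out other regions. After the peak on chromosome 2, the next was chromosome 15 from 93173590 to 93173777, with a −log10 q of 1738 and a fold of 27.2. It lay 126 bp from a peak of 435 bp with a −log10 q of 1838 and a fold of 28.8. Chromosome 7 from 65294926 to 65295110 had 1682, beside a peak with 1746. Chromosome 10 from 81129022 to 81129137 had 1669, beside one with 1751. Chromosome 8 from 84335265 to 84335404 had 1494, beside one with 1647. Each of these 4 lay 126 to 155 bp from a wider peak of slightly higher fold.

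The most isolated narrow strong peak was on chromosome 16 from 67417770 to 67417919, 1801740 bp from any other peak, with a fold of 23.2. Those on chromosome 5 from 41110394 to 41110562 and on chromosome 15 from 71789583 to 71789729 were 674174 and 599234 bp away. Their −log10 q values of 108, 91.6 and 102 were all below the median of the narrow strong peaks.

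The shortest intervals were 2 bp long. One was chromosome 5 from 108633508 to 108633509. It had a fold of 26.1 and a −log10 q of 144, lying 136 bp from a peak of 187 bp. The other was chromosome 6 from 28623167 to 28623168. It had a fold of 22.4 and a −log10 q of 322, lying 336 bp from a peak of 289 bp with 358. The 2 shortest stretches that held 2 narrow strong peaks were also made of very short intervals. On chromosome 6, intervals of 15 bp (65020049 to 65020063) and 36 bp (65020064 to 65020099) touched, with folds of 22.5 and 20.4. On chromosome 10, intervals of 10 bp (71120649 to 71120658) and 28 bp (71120686 to 71120713) lay 27 bp apart, with folds of 25.4 and 25.3. All 81 such stretches held 2, so these were taken as the shortest.

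Summits closest to an end were found on chromosome 8 from 40760371 to 40760532, at 0.926% of its width, and on chromosome 2 from 145067750 to 145067801, at 0.962%. On chromosome 17 from 43186931 to 43187081, the summit was at 99.0%. All 3 lay 134 to 256 bp from a wider peak of higher fold.

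Single peaks on either side of the limits are given for orientation. Just inside the fold limit were chromosome 2 from 30672539 to 30672715 (177 bp, −log10 q of 141) and chromosome 7 from 43930501 to 43930654 (154 bp, 86.9). Just outside were chromosome 9 from 106157691 to 106157823 (133 bp, 308) and chromosome 6 from 53015296 to 53015475 (180 bp, 105). At 1 bp under the width limit, the highest folds were 38.7 on chromosome 7 from 67280700 to 67280898 and 32.0 on chromosome 16 from 11115697 to 11115895. At a width of 200 bp, they were 32.3 on chromosome 14 from 44067962 to 44068161 and 29.8 on chromosome 2 from 154142545 to 154142744.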

How the data were processed

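The authors deposited 1 consensus peak list for all 19 samples, with no header and no sample columns. The submitters' processing notes name mm39, MACS2 2.2.7.1, deepTools 3.5.1, Picard 2.27.4 and STAR 2.7.9a. Not given in the sources used here are what each did, whether reads were shifted, which threshold applied and how peaks were joined. The deposited fold is a ratio over local background, the deposited −log10 q measures its certainty, and the deposited score is near 10 times the −log10 q. Starts and ends were read as first and last base, and width as their difference plus 1: no peaks then overlapped. Distances count the bases between peak ends. The comparison set was weighted to the narrow strong peaks in bands of fold starting at 20, 25, 30, 40 and 50. Multipliers from 1 to 20 were accepted within 1e-06. No test was run, because peaks of 1 list are not replicates. Intervals are Wilson or order-statistic, at 95%, and cover counting error only. Regions named are the 5 of highest fold, the 5 of highest −log10 q, the 3 most isolated, the 3 with the most outlying summit, the 2 narrowest, the 2 on each side of each limit and 2 stretches. The members and lists were chosen with earlier results of these data known. Distance, width and multiplier functions were tested on simulated data. Values were computed with pandas 2.3.3, scipy 1.17.1 and numpy 2.4.6 under Python 3.11.15 and drawn with matplotlib 3.10.9.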

Additional observations from a re-analysis of the deposited data

Results flagged for a closer look

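The width and fold limits were also met by 5 peaks outside chromosomes 1 to 19 and X. The rule leaves those sequences out, so the 5 peaks entered no comparison and no count was expected there beforehand. They were 2 on Y and 3 on sequences not placed in the assembled chromosomes, out of 18 strong peaks there. Their widths were 14, 81, 178, 179 and 193 bp. The 81 bp interval had a fold of 38.4 and a −log10 q of 1511 and lay 219 bp from another peak. The 14 bp interval, on Y, had a fold of 20.7 and lay 136 bp from another peak.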

How the results depend on the processing

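Of 37 alternative values, 20 stayed within their interval (1.5 times for the number of peaks), 16 moved and 1 turned its direction. With a fold of 25 or more there were 604 narrow peaks, 5.66% of strong peaks. The median distance was then 1.01 times that of the weighted comparison, the share touching a neighbour 0.662 percentage points higher, the −log10 q 0.482 times and the share of scores that are no mean of 20 whole numbers 25.6 points higher. With widths below 150 bp there were 800 (3.80%), and the median distance turned from longer to shorter than the comparison's, at 0.0936 times. Among peaks whose −log10 q was at least the median, distance was 1.21 times. With width as end minus start, the touching difference was 0. Counting gaps up to 100 bp as touching gave 2.21 points. The −log10 q ratio was 0.711 against peaks of 200 to less than 400 bp and 0.412 unweighted. The following were added after seeing the data. Splitting at 400 or 1000 bp put −log10 q in the near set at 2.83 or 2.39 times the far set. Counting neighbours of fold 10, 15 or 25 and more put 5.53%, 0.908% or 0.206% of narrow strong peaks between 500 and 4500 bp. Other causes were not tested. No paired analysis was possible because peaks carry no replicate numbers, and no sample could be left out. Unknown depth limits what an absent peak can show.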

Other observations

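The share of narrow peaks changed with fold across the whole list. It was 59.9% below a fold of 5, 66.3% from 5 to 10, 56.6% from 10 to 15 and 35.2% from 15 to 20, before the 17.5% from 20 to 25. The median width rose over these bands from 180 bp, through 171, 186 and 247 bp, to 341 bp.

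Some peaks have a whole-number score and a fold and −log10 q of at most 6 significant digits, as a value that was not averaged would. There were 20 such narrow strong peaks (0.825%), against 5 strong peaks of 200 to less than 800 bp and 6156 narrow peaks of lower fold (8.81%). All 20 lay beyond 500 bp from another peak, as did 72.8% of all narrow strong peaks. Of the narrow strong peaks of 120 bp or wider, only 15.1% lay within 500 bp. The 20 were 118 to 195 bp wide and had a median fold of 22.0. They include the 2 narrow strong peaks of highest fold.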
